A study of Mus musculus with 3 samples.

Results

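The cytosolic and mitochondrial chaperones and their co-chaperones were examined in the cortex of adult mice heterozygous for Gtf2i(+/Δex2), an allele of the gene for the transcription factor TFII-I that is named for a deletion of exon 2, and of WT (+/+) mice. With earlier results of these data known, members were chosen by gene symbol, under a rule that uses no values. They were Tcp1 and the Cct genes, the Bag1 to Bag6 genes, and every RefSeq gene whose symbol begins with Hspa, Hsp90a, Hspb, Hspd, Hspe, Hsph, Dnaja, Dnajb or Dnajc, apart from Hspa5, Hspb1, Dnajb9, Dnajb11, Dnajc3, Dnajc10 and Dnajc30. The rule took 97 RefSeq genes, of which 81 are protein coding and 16 are pseudogenes. Array probes were found for 72 of these genes, with 108 probes among the 41174 gene probes of the array. A further 9 protein-coding genes that the rule takes, among them Hspa1b, had no probe with a matching accession and were not analysed here.

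Both genotypes were 16 weeks old and shared a mixed background that was 98.4% C57BL/6J, with 1.6% from 129Sv/CD1. Each of 3 Agilent arrays of 60-base probes compared a pool of total RNA from 3 to 5 Gtf2i(+/Δex2) mice with a pool from 3 to 5 WT mice, one labelled with Cy3 and the other with Cy5. On replicates 1 and 3 the mutant RNA carried Cy3, and on replicate 2 it carried Cy5. Nothing in the labels tells if the pools differed between arrays or if the mice were littermates, so every p-value measures the spread between 3 arrays, which may be technical, and the number of arrays limits the precision.

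Values not called signals are log2 ratios of the 2 channels of an array, taken as Gtf2i(+/Δex2) over WT, so a negative value is lower in the mutant. This direction is likely rather than stated: the sample titles name the mutant first, the deposited description calls the ratio test over control, and the Pro25G control spots changed sign with the dyes, at 4.51 and 4.58 on replicates 1 and 3 and -4.54 on replicate 2. A probe was tested when it was marked reliable, with foreground above 2 times background, on at least 2 arrays. Its mean ratio was tested against 0 with limma, and a call means an adjusted p below 0.05 after Benjamini-Hochberg adjustment over all 27530 tested probes. Signals are the deposited linear intensities; they compare genotypes within a probe, and are not levels to be compared between genes.

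Reliable spots made up 64.4% to 69.7% of the gene spots per array, and the ratios of all tested probes correlated between arrays at r = 0.822 for replicates 1 and 2, 0.783 for 1 and 3 and 0.625 for 2 and 3. Both Gtf2i probes fell, with mean log2 ratios of -0.47 ± 0.04 and -0.32 ± 0.05 (SD, n = 3; limma adjusted p = 0.0026 and 0.00505); where they lie relative to the deleted exon is not known here, so they check the labels only if they read the deleted transcript. Cortical excitatory neuron markers fell for 4 of 6 measured genes and rose for 0, and interneuron markers fell for 2 of 5 and rose for 0. Of 4 astrocyte genes 2 fell and 1 rose, of 5 oligodendrocyte genes 2 fell and 1 rose, of 4 microglia genes 3 fell and 1 rose, all 3 blood genes fell, neither endothelial gene passed, and of 3 choroid plexus genes 1 rose. On replicates 1, 2 and 3 the median log2 ratio was -0.44, -0.30 and -0.06 for interneuron markers, -0.48, -0.53 and -0.09 for blood markers and -0.25, -0.38 and 0.27 for endothelial markers. The 3 thalamus markers, which should be low in cortex, had a summed signal of 6827 to 8866 in Gtf2i(+/Δex2) and 2685 to 7553 in WT, with 1 gene higher past the threshold. Their median log2 ratio was 1.24 on replicate 3, and -0.01 and 0.06 on the other arrays. Replicate 3 therefore stands apart in thalamus, endothelial, blood and interneuron markers, and the member calls lost and gained without it are counted below. Of the 4 striatum markers 2 fell, with medians of -0.34, -0.10 and -0.00 on the 3 arrays, and their summed signal was 7762 to 8111 in Gtf2i(+/Δex2) and 8634 to 9754 in WT. The part of these markers in the results below was not tested. In tissue RNA, fewer cells of a type and less RNA per cell cannot be told apart.

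Chaperones help proteins reach and keep their folded shape. In the cytosol, Hsp70 proteins bind short exposed stretches of a client and release it in an ATP cycle; J-domain proteins of the DNAJA, DNAJB and DNAJC families deliver clients and start ATP hydrolysis, and Hsp110 and BAG proteins release the nucleotide. Hsp90 acts later on kinases, receptors and other clients, and the ring-shaped CCT chaperonin folds actin and tubulin. Mitochondria hold their own set, with Hspa9, Hspd1 and Hspe1 as the Hsp70, the chaperonin and its lid. In neurons this machinery also serves synaptic vesicle cycling, through Hspa8, Dnajc5 and Dnajc6.

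Of the 108 member probes, 95 probes for 67 genes were tested, and 94 of these were reliable on all 3 arrays. The other 13 were not reliable on enough arrays, and 5 genes (Dnajb13, Dnajb7, Dnajb8, Dnajc22 and Hspb2) had no tested probe. Of the 95, 49 passed the threshold in limma, or 51.6%, against 33.9% of all tested probes. Falls made up most of them: 38 member probes fell (40%, against 18.9% of all tested probes) and 11 rose (11.6%, against 15%). Among tested probes of all named genes 36.3% passed and 21.3% fell. Counted by gene, 39 of 67 members had at least 1 probe past the threshold (58.2%, against 40.7% of all named genes); 29 fell (22.7% of all named genes did), 10 rose (16.4%), 0 had probes called in both directions (1.56%) and 28 did not pass. With only the brightest tested probe of each gene, 32 member genes were called, 25 lower and 7 higher. That count was not made over all named genes.

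The differences were small. The median over the 95 member probes was -0.07, at -0.09, -0.08 and -0.11 on replicates 1, 2 and 3, against -0.00 over all tested probes, and 62.1% of member probes lay below 0 against 50.4% of all. The median absolute log2 ratio of the 49 called member probes was 0.27, close to the 0.26 of all called probes. The highest was 0.56, against 2.41 over all called probes. None of the 49 reached a 1.5-fold difference, which 552 of the 9333 called probes on the whole array did.

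**Figure D1:**
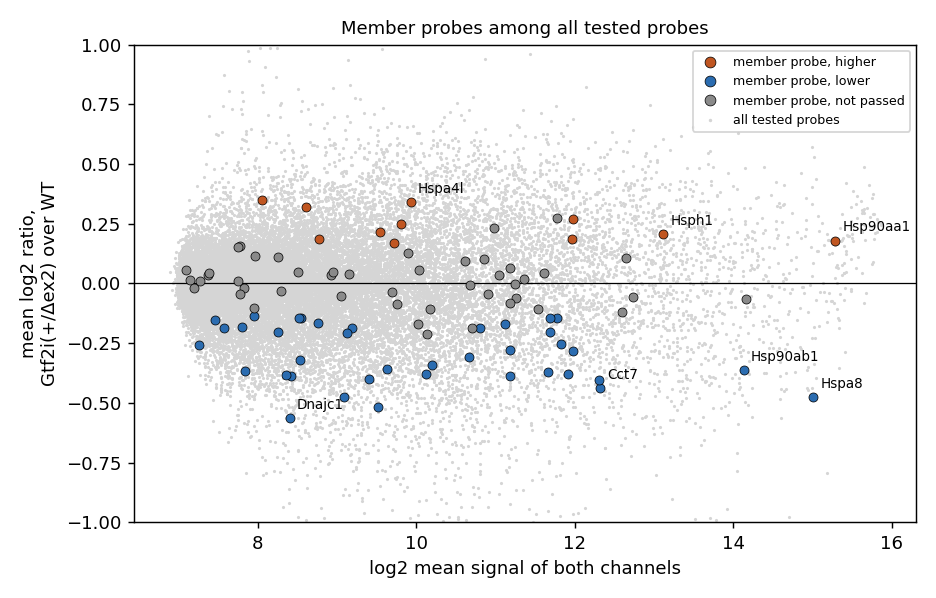
Mean log2 ratio (vertical axis, Gtf2i(+/Δex2) over WT) against the log2 mean signal of both channels (horizontal axis) for the 95 tested member probes, coloured by call, over all tested probes in light grey. The called member probes lie between -0.56 and 0.35, and blue points, lower in Gtf2i(+/Δex2), outnumber orange ones 38 to 11.

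Member probes were brighter than the array as a whole, with a median signal of 893.3 against 359.5, and bright probes passed the threshold more often. The counts were therefore set against probes of like brightness, in 4 equal bins of mean signal over all tested probes. In the dimmest bin 3 of 9 member probes fell (33.3%, against 8.88% of all probes in it), in the second 7 of 17 (41.2%, against 17.3%), in the third 10 of 22 (45.5%, against 22.6%) and in the brightest 18 of 47 (38.3%, against 26.6%). The share that fell was above that of all probes in each bin. Rises showed no such order: they were 0%, 5.88%, 22.7% and 10.6% of member probes from the dimmest to the brightest bin, against 5.26%, 13%, 18.2% and 23.6% of all probes. In the brightest bin 48.9% of member probes were called in either direction. Of all probes in that bin 26.6% fell and 23.6% rose, so calls of both directions together were not more frequent among members there.

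**Figure D2:**
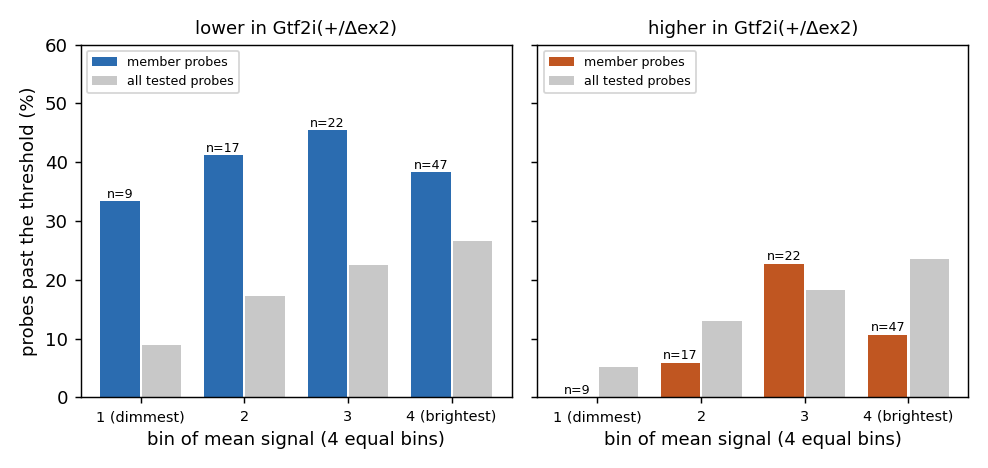
Share of probes past the threshold (percent) that were lower (left panel) or higher (right panel) in Gtf2i(+/Δex2), for member probes (coloured bars, with the number of member probes above) beside all tested probes (grey bars), in 4 equal bins of mean signal from dimmest to brightest. Member probes fell in 33.3% to 45.5% of cases across the bins, against 8.88% to 26.6% of all tested probes.

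Most calls were lost without the first array. Without replicate 1, 15 of the 49 member calls remained and 0 were added, while the share called among all tested probes was 8.75%. Without replicate 2, 31 remained, against 25.6% of all probes called. Without replicate 3, 40 remained and 10 were added, against 35.9%. The 10 added were 2 probes each of Hspa1a and Dnaja1 and 1 each of Bag3, Dnajb1, Dnajc7, Hspa4l, Hspb7 and Hspb8. The 15 probes that kept their call without each array in turn belonged to 13 genes, 12 probes lower and 3 higher. They were 15.8% of the 95 tested member probes, against 8.56% of all tested probes by the same criterion. They were both probes of Hspa8 and of Dnajc1, and 1 probe each of Hspa2, Hspa4, Hspa12a, Cct7, Dnajb1, Dnajc2, Dnajc27 and Bag6, all lower, with Hspa4l, Dnajb3 and Hspbap1 higher.

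In the Hsp70 and Hsp110 group, 6 of 11 tested genes fell, 2 rose and 3 did not pass, with a median of -0.19 over 20 probes. Called genes made up 72.7% of the group, against 40.7% of all named genes. A gene with more probes has more chances of a call, and this group had 20 probes for 11 genes, against 16550 for 12721. Hspa8, the constitutive cytosolic Hsp70 that also strips clathrin from synaptic vesicles, fell on both of its probes. Probe A_51_P170371 had signals of 23471, 32578 and 28419.8 in Gtf2i(+/Δex2) against 33235, 43537 and 40416 in WT on replicates 1, 2 and 3. The 3 mutant signals all lay below the 3 WT signals, with log2 ratios of -0.50, -0.42 and -0.51. The mean was -0.48 ± 0.05 (SD, n = 3), or 71.9% of WT (limma adjusted p = 0.00274). Probe A_52_P12877 gave -0.29, -0.42 and -0.40, a mean of -0.37 ± 0.07 and 77.3% of WT (limma adjusted p = 0.00456), so both probes were below 0 on all 3 arrays.

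Hspa2, an Hsp70 best known from sperm development, fell on both probes: A_51_P453149 averaged -0.38 ± 0.05 and A_52_P176391 -0.19 ± 0.05 (SD, n = 3; limma adjusted p = 0.00364 and 0.0219). The call of the second was lost on leaving out an array, at limma adjusted p = 0.168 without replicate 1 and 0.0656 without replicate 2. Hspa12a, a distant relative of the family, also fell on both probes, at -0.40 ± 0.05 and -0.26 ± 0.03 (limma adjusted p = 0.00346 and 0.00716, the second 0.0805 without replicate 1). Hspa13, which is known to sit in the endoplasmic reticulum although the rule takes it, had 1 probe at -0.36 ± 0.13 (limma adjusted p = 0.00923, and 0.0657 without replicate 1) and 1 at 0.10 ± 0.05 that did not pass. Hspa14, Hspa12b and the testis form Hspa1l did not pass, with means of -0.06, -0.03 and 0.01.

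Hspa1a, the stress-inducible Hsp70, differed between arrays. On replicates 1, 2 and 3 its probe A_52_P52803 gave -0.49, -0.55 and -0.13. A_51_P117952 gave -0.36, -0.42 and 0.15. A_52_P82741 gave -0.41, -0.27 and 0.12. All 3 probes were below 0 on replicates 1 and 2, and on replicate 3 all were above their values on the other arrays, 2 of them above 0. Signals of A_51_P117952 were 1060.3, 1112 and 969 in Gtf2i(+/Δex2) against 1364, 1492 and 873 in WT, so that the WT signal, more than the mutant one, was lower on replicate 3. Only A_52_P52803 passed, at -0.39 ± 0.23 (SD, n = 3; limma adjusted p = 0.0251, and 0.124 without replicate 1 and 0.0959 without replicate 2). Without replicate 3 the other probes averaged -0.39 and -0.34 (limma adjusted p = 0.000738 and 0.00213). Hspa1a has a near-identical copy, Hspa1b, and these probes may read both.

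The 3 genes of the Hsp110 branch, which act as nucleotide exchange factors for Hsp70, gave rises for 2 and a fall for 1. Hspa4l rose on 2 of 3 probes: A_51_P517928 had signals of 1135, 1215 and 965 in Gtf2i(+/Δex2) against 906, 925 and 782 in WT, and a mean log2 ratio of 0.34 ± 0.05 (SD, n = 3; limma adjusted p = 0.00443), or 127% of WT. The mutant and WT signals did not overlap. Its probe A_52_P667923 averaged 0.25 ± 0.02 (limma adjusted p = 0.00718, and 0.073 without replicate 1), and A_52_P652704 averaged 0.23 ± 0.18 and did not pass, with limma adjusted p = 0.0274 without replicate 3. Hsph1 rose on its single probe, with ratios of 0.14, 0.35 and 0.13 and a mean of 0.21 ± 0.12 (limma adjusted p = 0.0427, and 0.132 without replicate 1 and 0.0813 without replicate 2). Hspa4 had a probe that fell, A_52_P617817 at -0.36 ± 0.04 (limma adjusted p = 0.00364), and a second at 0.06 ± 0.04 that did not pass. The probe that fell was the dimmer, with a mean signal of 229 against 1046.

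The Hsp90 pair went opposite ways. Hsp90ab1, the constitutive form, fell on both probes. For A_51_P485043 the signals were 13929.5, 18943 and 14941 in Gtf2i(+/Δex2) against 18635, 21821 and 20633 in WT, and the ratios -0.42, -0.20 and -0.47 averaged -0.36 ± 0.14 (SD, n = 3; limma adjusted p = 0.0105, and 0.074 without replicate 1). The mutant signal was the lower on each array, though the highest mutant signal, on replicate 2, exceeded the lowest WT signal, on replicate 1. A_52_P257204 averaged -0.34 ± 0.11 (limma adjusted p = 0.00833, and 0.0557 without replicate 1). Hsp90aa1, the stress-inducible form, rose on its single probe: signals were 41776, 44653 and 40788 in Gtf2i(+/Δex2) against 34535, 42372 and 35784 in WT, and ratios of 0.27, 0.08 and 0.19 averaged 0.18 ± 0.10, or 113% of WT (limma adjusted p = 0.0444). That call was lost on leaving out an array, at limma adjusted p = 0.284 without replicate 1 and 0.0579 without replicate 3. On each array the Hsp90aa1 ratio was above 0 and both Hsp90ab1 ratios were below it.

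**Figure D3:**
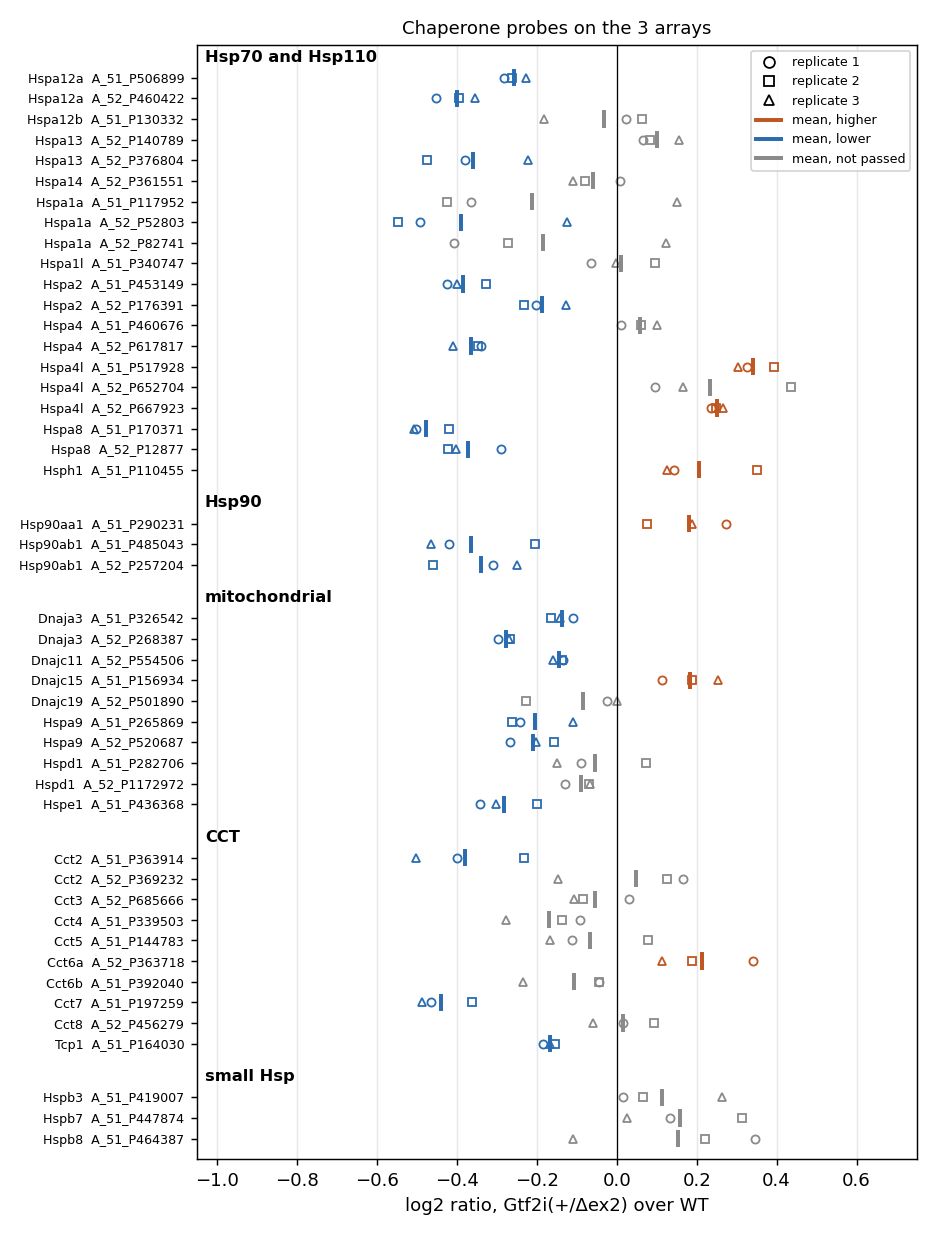
Log2 ratio (horizontal axis, Gtf2i(+/Δex2) over WT) of each tested probe of the Hsp70 and Hsp110, Hsp90, mitochondrial, CCT and small heat shock protein genes, with a symbol per replicate, a bar at the mean and colour by call. Both Hspa8 probes and both Hsp90ab1 probes lie left of 0 on all 3 arrays, the Hsp90aa1 probe lies right of 0, and 2 of 3 Hspa1a probes cross 0 on replicate 3.

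Of the 7 genes grouped here as mitochondrial, 4 fell, 1 rose and 2 did not pass, with a median of -0.14 over 10 probes. The share of genes called was 71.4%, against 40.7% of all named genes. Hspa9, the mitochondrial Hsp70, fell on both probes, at -0.20 ± 0.08 and -0.21 ± 0.06 (SD, n = 3; limma adjusted p = 0.025 and 0.0162). The first had limma adjusted p = 0.177 without replicate 1 and 0.0808 without replicate 2, and the second 0.154 without replicate 1. Dnaja3, its J-domain partner, fell on both probes, at -0.28 ± 0.02 and -0.14 ± 0.03 (limma adjusted p = 0.00565, and 0.0665 without replicate 1, against 0.0402, and 0.206 without replicate 1, 0.0965 without replicate 2 and 0.0797 without replicate 3 for the second). Dnajc11, a protein of the cristae-organising complex, averaged -0.14 ± 0.01 and passed in limma (adjusted p = 0.0337, and 0.218 without replicate 1, 0.0691 without replicate 2 and 0.0793 without replicate 3). Of a related pair of J-domain proteins at the inner-membrane import motor, Dnajc15 rose, at 0.18 ± 0.07 (limma adjusted p = 0.0277, and 0.104 without replicate 1, 0.0774 without replicate 2 and 0.0607 without replicate 3), and Dnajc19 averaged -0.08 ± 0.13 and did not pass.

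Hspe1 and Hspd1, the lid and the barrel of the mitochondrial chaperonin, are neighbours read in opposite directions, and their annotated spans overlap by 96 bases at their outermost starts. The stretch between transcript starts of both genes is shown because 1 heat shock element, the binding sequence of heat shock factors, lies upstream of both. RefSeq promoters count from single transcript starts, and Hspd1 has 2. The element lies upstream of its inner start, 311 bases inside the annotated gene, and therefore within the gene as counted from the outermost start. The sequences are RefSeq promoters of GRCm38.p6, printed 5′ to 3′ on each gene's strand, and the capitals mark the element, 89 to 72 bases before the start of Hspe1 (chr1:55088028-55088097, plus strand) and 144 to 127 bases before the inner start of Hspd1 (chr1:55088038-55088107, minus strand).
Hspe1: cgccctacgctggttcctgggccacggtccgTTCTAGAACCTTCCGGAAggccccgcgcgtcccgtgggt
Hspd1: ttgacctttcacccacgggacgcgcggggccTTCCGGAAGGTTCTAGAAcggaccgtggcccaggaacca

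Hspe1 fell: its probe had signals of 3318, 4176 and 3509.6 in Gtf2i(+/Δex2) against 4208, 4796 and 4327 in WT, ratios of -0.34, -0.20 and -0.30 and a mean of -0.28 ± 0.07 (SD, n = 3; limma adjusted p = 0.00888, and 0.0844 without replicate 1). Hspd1 did not pass on either probe. A_51_P282706 had signals of 6493, 7356 and 6261 in Gtf2i(+/Δex2) against 6906, 6991 and 6946 in WT and averaged -0.06 ± 0.12, with a 95% interval of -0.19 to 0.08, and A_52_P1172972 averaged -0.09 ± 0.04, with an interval of -0.18 to 0.01. The mutant and WT signals of A_51_P282706 overlapped, whereas all Hspe1 signals in Gtf2i(+/Δex2) lay below those in WT. The difference between Hspe1 and Hspd1 was not tested. Both genes, like Hspa9, have pseudogenes among the 16 that the rule took, and their probes may read more than 1 copy.

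Of 72 member genes, 57 had a promoter in the RefSeq table, where the 250 bases before each listed transcript start were searched on both strands. The genes without one were Hspa8, Hspa9, Hspa13, Hsp90aa1, Hsp90ab1, Hspb2, Cct4, Bag4, Dnajc2, Dnajc5, Dnajc5b, Dnajc11, Dnajc12, Dnajc18 and Dnajc22. The 3-unit element GAANNTTCNNGAA or TTCNNGAANNTTC was present in 3 of 57 genes (Dnajb6, Hspd1 and Hspe1; 5.26%), against 0.514% of all 27025 genes with a promoter. Hspd1 and Hspe1 were both counted for the same shared stretch shown above, so these 3 genes are not 3 separate elements. The 2-unit element GAANNTTC or TTCNNGAA, which lies within the longer one, was present in 12 of 57 (21.1%), against 14.5% of all genes. Genes with the 3-unit element fell (Hspe1) or did not pass (Hspd1 and Dnajb6, whose probes averaged 0.05 and 0.13). A match describes letters in the promoter and not a bound factor.

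The 2-unit element is shown in capitals for 3 stress-inducible members, of which Hsph1 and Dnaja1 each rose on 1 probe and Hspa1a fell on 1 of 3: Hsph1 (chr5:149636340-149636399, minus strand, 33 to 26 bases before a transcript start that lies 162 bases inside the annotated gene), Dnaja1 (chr4:40722308-40722377, plus strand, 124 to 117 bases) and Hspa1a (chr17:34972227-34972296, minus strand, 104 to 97 bases).
Hsph1: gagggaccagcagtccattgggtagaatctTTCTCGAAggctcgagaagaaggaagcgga
Dnaja1: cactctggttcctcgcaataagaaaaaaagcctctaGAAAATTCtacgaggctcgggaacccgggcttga
Hspa1a: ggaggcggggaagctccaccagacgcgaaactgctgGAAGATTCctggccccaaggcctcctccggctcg

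Of the 9 CCT genes, whose products form the double ring that folds actin and tubulin, 3 fell, 1 rose and 5 did not pass, with a median of -0.09 over 10 probes. The share of CCT genes called, 44.4%, was near the 40.7% of all named genes. Cct7 had signals of 4099, 4699 and 4342 in Gtf2i(+/Δex2) against 5656, 6041 and 6091 in WT. The mutant signals all lay below the WT signals, with ratios of -0.46, -0.36 and -0.49 and a mean of -0.44 ± 0.07 (SD, n = 3), or 73.8% of WT (limma adjusted p = 0.00336). Cct2 fell on A_51_P363914, at -0.38 ± 0.14 (limma adjusted p = 0.00903, and 0.0627 without replicate 1), but its other probe, A_52_P369232, gave 0.17, 0.13 and -0.15 and did not pass; without replicate 3 it averaged 0.15 (limma adjusted p = 0.0618). Tcp1, the first subunit, averaged -0.17 ± 0.01 (limma adjusted p = 0.0215, and 0.188 without replicate 1), and Cct6a averaged 0.21 ± 0.12 (limma adjusted p = 0.0338, and 0.22 without replicate 1 and 0.0861 without replicate 2).

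The other CCT subunits did not pass. Cct4 averaged -0.17 ± 0.10, just outside the threshold (limma adjusted p = 0.0502), and Cct6b, a testis form, -0.11 ± 0.11. Cct5, Cct3 and Cct8 averaged -0.07 ± 0.13, -0.05 ± 0.07 and 0.02 ± 0.08 (SD, n = 3 each). Across the 10 CCT probes the mean log2 ratios thus ran from -0.44 to 0.21.

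Small heat shock proteins hold unfolded clients without ATP. None of their 3 tested genes passed in limma, whereas 40.7% of all named genes did. With 3 genes this does not set the group apart from that share. Their probes were also dim, with a median signal of 220.4 against 359.5 over all tested probes. Hspb7 averaged 0.16 ± 0.15 and Hspb3 0.11 ± 0.13. Hspb8, a partner of Bag3 in selective autophagy, gave 0.35, 0.22 and -0.11. Its sign on replicate 3 was opposite to that on replicates 1 and 2, and without replicate 3 it averaged 0.28 (limma adjusted p = 0.00485), as Hspb7 averaged 0.22 (0.0199).

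Among the DNAJA genes, type I J-domain proteins that deliver clients to Hsp70, 1 of 3 rose, 1 fell and 1 did not pass. Called genes were thus 66.7%, against 40.7% of all named genes. Dnaja1 rose on 1 of 3 probes, A_52_P106429, with signals of 4358, 5368 and 3680.4 in Gtf2i(+/Δex2) against 3679, 4228 and 3159.6 in WT, ratios of 0.24, 0.34 and 0.22 and a mean of 0.27 ± 0.07 (SD, n = 3; limma adjusted p = 0.00909, and 0.0704 without replicate 1). Its other probes averaged 0.28 ± 0.23 and 0.11 ± 0.13 and did not pass, but without replicate 3 they averaged 0.37 and 0.17 (limma adjusted p = 0.0046 and 0.0476). Dnaja4 fell, at -0.17 ± 0.06 (limma adjusted p = 0.0317, and 0.179 without replicate 1 and 0.0831 without replicate 2), and Dnaja2 gave -0.09, 0.26 and -0.19, crossing 0.

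Of 6 DNAJB genes 3 fell, 1 rose and 2 did not pass, so that 66.7% were called, against 40.7% of all named genes. Dnajb1, the main stress-inducible partner of Hspa1a and Hspa8, fell on A_52_P171663, with ratios of -0.22, -0.45 and -0.30 and a mean of -0.32 ± 0.12 (SD, n = 3; limma adjusted p = 0.0105). Its other probe, A_51_P153486, averaged -0.12 ± 0.07 and did not pass, with limma adjusted p = 0.0437 without replicate 3. Dnajb2, a neuronal J-domain protein that sends clients to the proteasome, averaged -0.31 ± 0.14 (limma adjusted p = 0.0173, and 0.109 without replicate 1 and 0.0679 without replicate 2). Dnajb12, a membrane protein of the endoplasmic reticulum, averaged -0.18 ± 0.04 (limma adjusted p = 0.0197, and 0.178 without replicate 1 and 0.0562 without replicate 2). Dnajb3, known from the testis in mice, rose, with ratios of 0.28, 0.36 and 0.33 and a mean of 0.32 ± 0.04 (limma adjusted p = 0.0048). Dnajb4 and Dnajb6 had 2 probes each, with means from -0.05 to 0.13, and did not pass.

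The DNAJC family, the most varied J-domain proteins, had 18 tested genes outside the mitochondrial group above, of which 8 fell, 2 rose and 8 did not pass. Of these genes 55.6% were called, against 40.7% of all named genes. Dnajc1, which spans the membrane of the endoplasmic reticulum, had the lowest mean of any member: A_51_P159895 had signals of 311, 256 and 272 in Gtf2i(+/Δex2) against 421, 449.6 and 367 in WT, and averaged -0.56 ± 0.22 or 67.7% of WT, and A_51_P159896 averaged -0.47 ± 0.14 (SD, n = 3; limma adjusted p = 0.00794 and 0.00538). Replicate 2 was the lowest of the 3 arrays on both probes. Dnajc2, the J-domain protein of the ribosome-associated complex, fell on both probes, at -0.52 ± 0.09 and -0.18 ± 0.08 (limma adjusted p = 0.00312 and 0.0298; the second was 0.163 without replicate 1 and 0.0674 without replicate 3). Hspa14, its partner in that complex, did not pass, as given above. Dnajc27, a small GTPase with a J domain, fell on A_52_P73703 at -0.38 ± 0.06 (limma adjusted p = 0.00397), while its other probe averaged 0.01 ± 0.05. Dnajc14 had 1 probe at -0.20 ± 0.02 (limma adjusted p = 0.013, and 0.104 without replicate 1) and 1 at 0.06 ± 0.12.

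The 2 J-domain proteins of the synaptic vesicle cycle both passed in limma. Dnajc6, or auxilin, which calls Hspa8 to clathrin coats, gave -0.21, -0.20 and -0.35, a mean of -0.25 ± 0.09 (SD, n = 3; adjusted p = 0.0136, and 0.0791 without replicate 1). Dnajc5, the cysteine string protein of synaptic vesicles, had signals of 4106, 4081 and 5095 in Gtf2i(+/Δex2) against 6356, 5910.0 and 5255 in WT. Its ratios of -0.63, -0.53 and -0.04 set replicate 3 apart from the others, and the mean of -0.40 ± 0.31 passed narrowly (limma adjusted p = 0.0483). Without replicate 1 or 2 the adjusted p in limma was 0.201 and 0.176, and without replicate 3 the mean was -0.58 (adjusted p = 0.000132). Dnajc8 on both of its probes and Dnajc17, both known with the splicing machinery, also fell, at means of -0.15, -0.14 and -0.15, and Dnajc9, a histone chaperone, and Dnajc16 rose on 1 probe each, at 0.19 and 0.17. None of these 5 probes was called without replicate 1 (limma adjusted p from 0.176 to 0.238) or without replicate 2 (0.0567 to 0.107), and without replicate 3 both Dnajc8 probes also missed the threshold (0.061 and 0.0628). The 8 DNAJC genes that did not pass (Dnajc4, Dnajc5b, Dnajc5g, Dnajc7, Dnajc12, Dnajc18, Dnajc24 and Dnajc28) had means from -0.11 to 0.09; the lowest, Dnajc7, averaged -0.18 without replicate 3 (limma adjusted p = 0.0332).

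**Figure D4:**
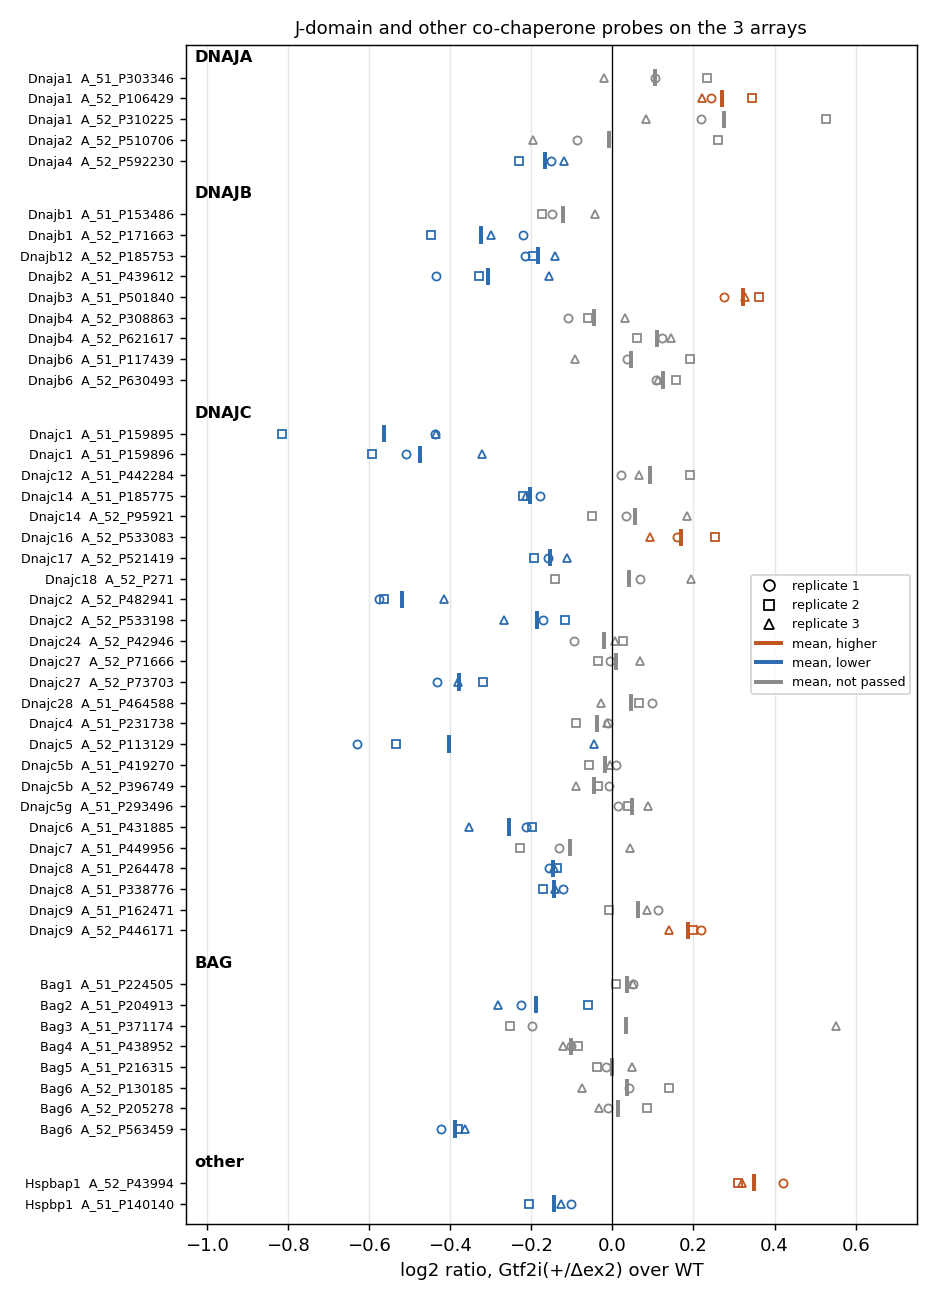
Log2 ratio (horizontal axis, Gtf2i(+/Δex2) over WT) of each tested probe of the DNAJA, DNAJB, DNAJC and BAG genes and of Hspbap1 and Hspbp1, with a symbol per replicate, a bar at the mean and colour by call. The 2 Dnajc1 probes lie farthest left together with 1 Dnajc2 probe, and on Bag3 and Dnajc5 replicate 3 lies to the right of the other arrays.

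Of 6 BAG genes, whose proteins release nucleotide and client from Hsp70, 2 fell and 4 did not pass, with a median of 0.01 over 8 probes. The share of BAG genes called, 33.3%, was below the 40.7% of all named genes. Bag6, which handles membrane proteins before insertion, fell on 1 of 3 probes: A_52_P563459 had signals of 1772, 2070.0 and 2268 in Gtf2i(+/Δex2) against 2376, 2692 and 2917 in WT, and a mean log2 ratio of -0.39 ± 0.03 (SD, n = 3; limma adjusted p = 0.00332). Its other probes averaged 0.04 ± 0.11 and 0.01 ± 0.06. They were dim, with mean signals of 167 and 142 against 2318 for the probe that fell, so they say little against that fall. Bag2, an inhibitor of the ubiquitin ligase Stub1, averaged -0.19 ± 0.11 (limma adjusted p = 0.0476, and 0.241 without replicate 1 and 0.0971 without replicate 3).

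Bag3, a stress-inducible partner of Hsp70 in autophagy, gave -0.20, -0.25 and 0.55. Its signals were 426, 451 and 613 in Gtf2i(+/Δex2) against 488, 536 and 419 in WT; on replicate 3 the mutant signal was the highest of its group and the WT signal the lowest of its own. The mean of 0.03 ± 0.45 did not pass (limma adjusted p = 0.887), and without replicate 3 it was -0.22 (limma adjusted p = 0.0115). Replicate 3 is also where the thalamus markers and the Hspa1a probes stood apart from the other arrays, and the part of the tissue difference in this was not tested. Bag4, Bag1 and Bag5 averaged -0.10 ± 0.02, 0.04 ± 0.03 and -0.00 ± 0.04 and did not pass.

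Hspbp1 and Hspbap1 were taken by their symbols. Hspbp1, a nucleotide exchange factor of Hsp70, fell, at -0.14 ± 0.05 (SD, n = 3; limma adjusted p = 0.0454, and 0.188 without replicate 1, 0.113 without replicate 2 and 0.0611 without replicate 3). Hspbap1, a protein named for binding Hspb1, rose, with signals of 301, 319 and 279.8 in Gtf2i(+/Δex2) against 225, 258 and 224 in WT, and a mean of 0.35 ± 0.06 (limma adjusted p = 0.00469). It was the highest mean of any member.

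Genes with several probes show how far a call depends on the probe. Of the 67 tested genes 43 had a single probe and 24 had several. All probes passed in limma for 9 of the 24, some for 11 and none for 4, and 7 of the 24 had means on both sides of 0. The same counts were not made over all named genes with several probes. They therefore do not show if members differ from the array in this. The gap between the highest and lowest mean of a gene had a median of 0.149 and reached 0.461. No gene had probes called in both directions. Where in the transcript each probe lies was not analysed here.

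**Figure D5:**
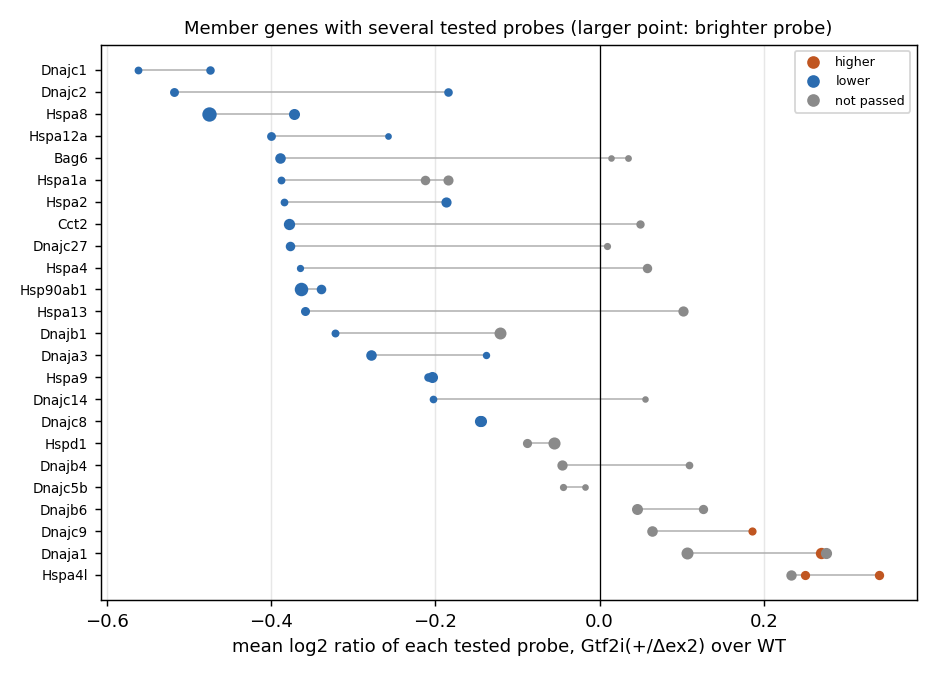
Mean log2 ratio (horizontal axis, Gtf2i(+/Δex2) over WT) of every tested probe of the 24 member genes with several probes, 1 gene per row, joined by a line, with larger points for brighter probes and colour by call. The probes of Hspa8, Hsp90ab1, Hspa9 and Dnajc8 lie close together, whereas those of Bag6, Cct2, Hspa4 and Hspa13 lie on both sides of 0.

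Genes that work with these chaperones but that the rule does not take were listed by function. Of 48 measured, 20 fell, 10 rose, 1 was split and 17 did not pass, and 50.7% of their 69 probes passed in limma, against 33.9% of all tested probes, with a median of -0.02. Of all named genes 22.7% fell, 16.4% rose and 1.56% were split. These 69 probes were not matched for brightness, and in the brightest bin 26.6% of all tested probes fell and 23.6% rose. Hsf1, the main heat shock factor, was the only one of the 4 listed factors that was measured, and fell, with a mean of -0.17 ± 0.04 (SD, n = 3; limma adjusted p = 0.0256, and 0.214 without replicate 1). All 4 Hsp70 co-factors fell: the tetratricopeptide adaptors Sgtb and Sgta averaged -0.43 ± 0.06 and -0.32 ± 0.05, the ubiquitin ligase Stub1 -0.25 ± 0.06 (limma adjusted p = 0.00321, 0.00485 and 0.0102; Stub1 had 0.093 without replicate 1), and St13 fell on 1 of 2 probes, at -0.22 ± 0.05 (limma adjusted p = 0.0131). The other St13 probe, the brighter of the 2, averaged -0.02 ± 0.04 and did not pass.

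Of 18 Hsp90 co-chaperones 7 fell, 2 rose, 1 was split and 8 did not pass. Cdc37, which brings kinases to Hsp90, is counted as a fall on its dimmer probe alone, at -0.42 ± 0.10 (SD, n = 3; limma adjusted p = 0.00469). Its other probe, with a mean signal of 19263 against 574, averaged 0.19 ± 0.13 and did not pass (limma adjusted p = 0.054). That second probe was called higher under 4 alternatives, among them the fit without replicate 2 (0.26, limma adjusted p = 0.0235), and Cdc37 would then be split. Fkbp4, a steroid receptor co-chaperone, fell on both, at -0.33 ± 0.07 and -0.19 ± 0.11 (limma adjusted p = 0.00577, and 0.0568 without replicate 1, against 0.0422, and 0.109 without replicate 1 and 0.0927 without replicate 2 for the second). Ptges3, or p23, was the split gene, with 1 probe at 0.40 ± 0.04 and the other at -0.48 ± 0.19 (limma adjusted p = 0.00327 and 0.00872), so these arrays give it no single direction.

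Of 13 chaperonin partners 5 fell, 3 rose and 5 did not pass. Pfdn2 and Pfdn5, prefoldin subunits that pass actin and tubulin to CCT, fell, at -0.45 ± 0.10 and -0.30 ± 0.03, and the tubulin cofactor Tbca rose, at 0.56 ± 0.02 (SD, n = 3; limma adjusted p = 0.00431, 0.00485 and 0.00214; Pfdn5 had 0.0568 without replicate 1). Of 12 genes of mitochondrial import and quality control 3 fell, 5 rose and 4 did not pass. Grpel1, the nucleotide exchange factor of Hspa9, fell on both probes, at -0.41 ± 0.03 and -0.30 ± 0.03 (limma adjusted p = 0.00307, against 0.00504, and 0.0511 without replicate 1 for the second). Pam16 of the import motor rose, at 0.55 ± 0.11 (limma adjusted p = 0.00321), and the outer-membrane receptor Tomm70a rose on 2 of 3 probes, at 0.52 ± 0.12 and 0.39 ± 0.14, with the third at 0.11 ± 0.04 not passing; the second had limma adjusted p = 0.00849.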

How the data were processed

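Total RNA (500 ng, integrity number at least 7) was amplified, labelled and hybridised to 2-colour arrays, per the labels' protocols. The authors deposited a linear intensity per channel and spot, already background-subtracted, normalized and turned for the dye swap, and a log2 ratio with repeated spots collapsed, per the file headers and the deposited description; how they were normalized is not given. The deposited value table, a score that is the signed fold per spot, was identical to the arrays' own fold column at all 44290 spots of each array and was not tested. No column of per-sample values was left unused.

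Spots of a probe were averaged, probe accessions were matched without versions to RefSeq genes (GRCm38.p6; 21445 of 41174 probes, or 52.1%, named, with 16550 named probes among those tested for 12721 genes), and the log2 ratio of the deposited channels was fitted by lmFit and eBayes of limma 3.58.1, under R 4.3.3 and version 1.17.8 of data.table. P-values were adjusted over all tested probes, never over the members alone, and errors are SDs over 3 arrays. Loess within arrays had been foreseen for values not yet normalized and became an alternative. The fit was tested on simulated data. A dye term called 0 probes in limma, with 2409 at an unadjusted p below 0.05. Only replicate 2 had the mutant in Cy5, so this term cannot tell a dye effect from that array. With 3 arrays, 0 calls do not show that the dye had no effect. Figures used Python 3.11.15, pandas 2.3.3 and matplotlib 3.10.9.

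The members, the role groups, the accessory and marker lists and the tests were chosen with earlier results of these data known. Named genes were the defining members and every CCT subunit, the 4 genes of each role group with the smallest p among those of one sign on all arrays, genes with probes called both ways, and the 3 with the smallest p in each accessory list. Other genes are named to complete a group and were chosen after their values were seen, as was the alternative with 1 probe per gene.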

Additional observations from a re-analysis of the deposited data

How the results depend on the processing

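Probe calls depended on the arrays used. Leaving out 1 array gave 15 to 50 member probes past the threshold (12 to 36 lower and 3 to 14 higher) and 13 to 37 genes (10 to 27 lower and 3 to 10 higher), with a median log2 ratio of the member probes of -0.095 to -0.074, the lowest counts without replicate 1; by construction these fits use fewer arrays. With replicates 1 and 2 averaged as 1 there were 25 probes (20 lower and 5 higher) and 20 genes (16 lower and 4 higher). Those 25 were 26.3% of the member probes, against 18.6% of all tested probes (10.8% lower and 7.81% higher). Keeping only a B statistic above 0, the authors' stated criterion, left 14 probes (11 lower and 3 higher) and 13 genes (10 lower and 3 higher), against 9.67% of all tested probes. Array weights raised the member probes called higher to 22, and all called to 71, but 67.6% of all tested probes were then called (31.6% higher). The weights were 5.84, 0.373 and 0.459 on replicates 1, 2 and 3, so that fit rests mostly on replicate 1. Subtracting the negative control level gave 7 probes and 6 genes higher, against 12.7% of all tested probes higher. The median log2 ratio of the member probes was then -0.081, and the cause was not tested. Bag3 (A_51_P371174) reversed without replicate 3, at -0.22 (limma adjusted p = 0.0115), against 0.03 with all arrays, 0.15 without replicate 1 and 0.18 without replicate 2.

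The other alternatives (loess within arrays, centring, stricter or no filter on dim probes, a dye term, a variance trend, the authors' collapsed ratio and 1 probe per gene) moved no member count by over 1.5 times, and in each of them falls outnumbered rises. Of 57 named probes past the threshold, accessory genes included, 21 were called under every alternative. The test of within-array ratios is itself paired by array. Beyond that, no paired analysis was possible because the arrays form 1 group, so a replicate block could not be fitted. With 3 arrays and small ratios, a probe that did not pass is not shown to be unchanged.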
